A study of Mus musculus with 2 samples.

Results

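The 10 genes described here encode secreted proteins that the liver is known to release into plasma: the carriers Ttr, Rbp4, Ahsg, Fetub, Hpx, Hp, Apoh, Ambp and Orm1, and the serum amyloid gene Saa4. They were chosen by name, out of 43346 mouse gene identifiers in the deposited tables. All 10 were found by unversioned gene identifier, and 9 of them had reads. Livers came from mouse embryos of the B6NCrl strain at embryonic day 12.5, both sexes together and with no treatment or mutation in the labels. The 2 libraries form 1 group: replicate 1 is a pool of 120 embryos and replicate 2 a separate pool of 88 embryos. Each library was made from 10 ng of total RNA above 200 nt with added spike-in RNA. The design has no other group, so the values below give levels in this tissue and the difference between the 2 pools, with no p-value. Pooling hides the variation between embryos. The libraries held 37.6 M and 34.7 M expected counts, the estimated reads per gene called reads below, and spike-ins took 2.94% and 3.19% of them. For a gene of 1 kb effective length, 3 reads amounted to 0.0953 and 0.103 TPM.

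Plasma carriers keep small or reactive molecules soluble and out of harm. Retinol-binding protein 4 (Rbp4) carries vitamin A from the liver and circulates bound to transthyretin (Ttr), which also carries thyroxine. Haptoglobin (Hp) captures free hemoglobin and hemopexin (Hpx) captures free heme, so that both can be taken up again. In the adult, inflammation changes what hepatocytes make: positive acute phase genes such as Hp, Hpx and Orm1 are known to be induced through interleukin 6 and STAT3, while Ttr, Rbp4 and Ahsg are known to be lowered. The labelled tissue was checked against hepatoblast genes, the genes of the fetal liver cells that give rise to hepatocytes. All 6 of them were present, with Afp at 5312 and 5136 TPM and Alb at 898 and 913 TPM. TPM is a read count divided by effective transcript length and scaled to a fixed total per library, so levels can be compared between genes.

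Upstream sequences are shown for Rbp4, the most abundant of the 10 and one with 2 RefSeq starts, beside transcript models of very unequal share, and for the neighbouring pair Ahsg and Fetub, whose levels lay far apart. They come from the RefSeq promoter table on GRCm38.p6. Windows were read from it for 7 of the 10 genes, with 9 starts among them. None was read for Ttr, Hp and Orm1, so their upstream sequences were not examined. Each window is the 250 bases before a start, 5′ to 3′ on the gene's strand, and bases that the annotation gives to a 5′ untranslated exon are left off. Capitals mark matches, on either strand, to the TATA box (TATAAA), the CCAAT box, the half-site of HNF1 (GTTAAT), the FOXA forms (written TGTTTAC or else TGTTTGC), the HNF4 motif (CAAAGTCCA), the C/EBP motif (TTGCNNAA) and the STAT motif (TTCNNNGAA). The motifs TGTTTGC and TTGCNNAA can share bases, but no matches overlap in the sequences shown.
Rbp4, downstream start (chr19:38124829-38125061, minus strand): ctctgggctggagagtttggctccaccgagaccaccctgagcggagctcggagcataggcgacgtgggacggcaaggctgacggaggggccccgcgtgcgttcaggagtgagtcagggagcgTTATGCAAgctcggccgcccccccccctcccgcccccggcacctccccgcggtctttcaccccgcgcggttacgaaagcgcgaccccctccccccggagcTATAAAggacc
Rbp4, upstream start (chr19:38125322-38125571, minus strand): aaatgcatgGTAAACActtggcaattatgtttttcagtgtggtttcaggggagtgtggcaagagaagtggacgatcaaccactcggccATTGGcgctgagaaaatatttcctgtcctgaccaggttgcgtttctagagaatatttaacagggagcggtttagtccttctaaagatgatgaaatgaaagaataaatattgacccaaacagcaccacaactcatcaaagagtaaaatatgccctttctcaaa
Ahsg (chr16:22891765-22892014, plus strand): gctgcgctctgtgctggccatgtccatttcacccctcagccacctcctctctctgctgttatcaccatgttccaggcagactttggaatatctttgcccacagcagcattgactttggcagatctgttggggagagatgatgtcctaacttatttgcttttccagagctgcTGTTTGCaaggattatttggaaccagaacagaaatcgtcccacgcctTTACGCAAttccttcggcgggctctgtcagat
Fetub, upstream start (chr16:22918132-22918333, plus strand): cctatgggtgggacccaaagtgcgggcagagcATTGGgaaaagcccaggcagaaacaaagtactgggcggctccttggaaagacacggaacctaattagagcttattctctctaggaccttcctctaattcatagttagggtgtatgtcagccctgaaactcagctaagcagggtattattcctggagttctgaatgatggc

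The windows of the 2 Rbp4 starts had little in common. Upstream of the downstream start (position 38124811) lay 28 CpG dinucleotides at 70.8% G+C, and 92.4% of all 32851 windows held fewer CpG. This window held TATAAA beginning 28 bases before the start and a C/EBP match at 128. Upstream of the other start (position 38125321) lay 5 CpG at 40.8% G+C, with a CCAAT match at 162, a TGTTTAC match at 241 and no TATAAA. The Ahsg window held a TGTTTGC match at 79 and a C/EBP match at 32, with 6 CpG, which is the median of all windows. The Fetub window held TGTTTGC at 42 and TATAAA at 31, both in its last 48 bases, which an untranslated exon covers and which are not printed; it also held CCAAT at 218 and 4 CpG. The other RefSeq start of Fetub (position 22920222) had 7 CpG in its window, a TGTTTAC match at 236 and no TATAAA. Over all windows, TATAAA occurred in 12.4%, CCAAT in 33.8%, TGTTTAC in 3.17%, TGTTTGC in 4.30% and TTGCNNAA in 9.56%. The HNF1 half-site (6.43% of all windows), the HNF4 motif (0.384%) and the STAT motif (7.02%) had no match in any of the 9 windows. A match describes letters and no binding was measured.

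The levels of the 10 genes spanned more than 3 orders of magnitude, and the 2 pools placed them in the same order. In replicates 1 and 2, Rbp4 was at 1228 and 1222 TPM, which put it at rank 63 of all mouse genes by mean TPM. Ambp followed at 536 and 509 TPM, then Ttr at 198 and 197, Ahsg at 160 and 165, Hpx at 74.4 and 72.0, and Apoh at 31.9 and 31.5 TPM. Hp was at 9.17 and 9.41 TPM, Saa4 at 2.01 and 1.42, Fetub at 0.26 and 0.52, and Orm1 had no reads in either library. For no neighbouring genes in this order did the libraries overlap; the closest were Ttr and Ahsg, whose means differed 1.22-fold. Summed, the 10 genes made up 2240 and 2207 TPM (mean 2223 ± 23.1 SD, n = 2), or 0.235% ± 0.00168 of mouse gene TPM. Rbp4 alone held 55.1% ± 0.355 of that sum and Ambp 23.5% ± 0.602, and the 4 most abundant genes held 94.8% ± 0.0385. A level of at least 1 TPM in both libraries was reached by 8 of the 10 genes, and by 12841 of the 23518 mouse genes with a read. That share is also the background for such counts in the other gene lists below. The median was 52.5 TPM over all 10, Orm1 at 0 included, and 73.2 TPM over the 9 with reads, beside 1.86 TPM over the 23518 mouse genes with a read.

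**Figure D1:**
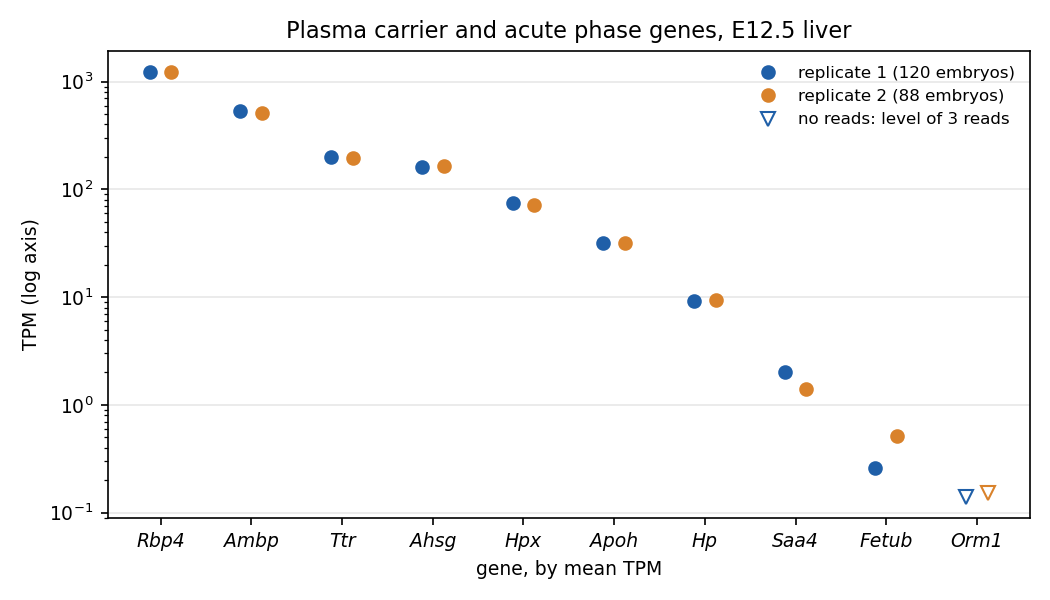
TPM of each gene (log axis) in replicate 1 (blue) and replicate 2 (orange), ordered by mean level. Open triangles for Orm1, which had no reads, stand at the level that 3 reads would give, 0.141 and 0.152 TPM. The libraries lie close together down to Hp and move apart at Saa4 and Fetub.

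Rbp4 and Ttr, the retinol carrier and its partner in plasma, were unequal in RNA. The retinol-binding protein gene (chromosome 19, 38116629 to 38125281, minus strand) had 32294 and 29702 reads. Transthyretin (chromosome 18, 20665280 to 20674321, plus strand) had 6972 and 6427 reads. Per length, Rbp4 RNA was 6.21 times Ttr RNA in replicate 1 and 6.20 times in replicate 2, so this ratio hardly moved between the pools. Rbp4 RNA was also more abundant than Alb RNA, by 1.35-fold ± 0.0214, whereas Ttr RNA was 0.218 ± 0.00324 of it. Ttr is also a known product of choroid plexus and Rbp4 and Ttr of the yolk sac. Among 7 choroid plexus genes, Otx2 had no reads, Kcne2 had 0 and 5 reads, and the list summed to 28.6 and 28.3 TPM, of which 25.4 and 25.6 TPM were Aqp1, a water channel also found in red cells and endothelium; Clic6 and Slc4a5 were next, at 1.05 to 1.44 TPM. Of the 7 yolk sac visceral endoderm genes, 5 reached 1 TPM in both libraries, and the list summed to 449 and 431 TPM. Apoc2, an apolipoprotein gene also known from hepatocytes, was at 357 and 343 TPM, Cited1 at 70.8 and 66.2, the glucose transporter Slc2a2 at 12.8 and 13.9 and Rhox5 at 6.54 and 6.31. In the same list, the endocytic receptors Cubn (0.06 and 0.17 TPM) and Lrp2 (0.08 and 0.25 TPM) and their partner Amn (1.32 and 1.17 TPM) were low. The part of such cells in the Ttr and Rbp4 levels was not tested.

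Among 18 other genes of retinol and thyroid hormone transport and metabolism, 9 reached 1 TPM in both libraries. Beside Alb, the highest were Dgat1, an acyltransferase, at 16.4 and 17.7 TPM, and Crabp1, a cellular carrier of retinoic acid, at 6.51 and 9.37 TPM. Stra6, the cell-surface receptor for Rbp4, was at 0.52 and 1.07 TPM from 45 and 78 reads, and its homolog Stra6l at 2.19 and 2.60 TPM. Lrat, which esterifies retinol for storage, was at 0.42 and 0.30 TPM. Serpina7, the thyroxine-binding globulin gene, was at 0.81 and 1.08 TPM, far below Ttr. The deiodinase genes Dio1, Dio2 and Dio3 all lay under 0.4 TPM. Of the 11 genes of this list with a mean of at least 50 reads, 3 were higher in replicate 1 and 8 lower (6 and 5 after centring on the ERCC spike-ins), and 5 lay at least 1.2-fold apart. Over all 13016 mouse genes of that depth, 52.1% were higher in replicate 1 before centring and 13.4% lay at least 1.2-fold apart. Centring raised their median log2 ratio from 0.0063 to 0.12.

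Ahsg and Fetub encode the paralogous fetuins A and B, of which fetuin A keeps calcium phosphate from precipitating and fetuin B is known to inhibit the protease that hardens the egg coat. They lie 18.9 kb apart on the plus strand of chromosome 16 (22891277 to 22899449 and 22918334 to 22939778). Ahsg had 6928 and 6594 reads, Fetub 11 and 19. The Ahsg level was 616 times that of Fetub in replicate 1 (95% counting interval 344 to 1234) and 317 times in replicate 2 (203 to 526). The intervals of the 2 ratios overlap. Hrg, the next cystatin-family gene on the same side, had 5 and 4 reads, and Kng2, beyond it, had 42.0 and 30.0 reads. Kng1, a kininogen of the same family, stood at 137 and 131 TPM, close to Ahsg. Of 7 other cystatin-family genes, 4 reached 1 TPM in both libraries, with Cst3 (124 and 122 TPM) and Cstb (91.0 and 92.7 TPM) next after Kng1. An antisense gene, Gm30505, overlaps 3110 nt of Ahsg in the annotation used for coordinates and has no row in the deposited tables; the strand of the reads is not given, so reads from it could not be told apart from Ahsg.

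Hpx and Hp, the heme and hemoglobin scavengers, were also unequal. Hpx (chromosome 7, 105591613 to 105600137, minus strand) had 3230 and 2892 reads and Hp (chromosome 8, 109575128 to 109579172, minus strand) 359 and 341. The Hpx level was 8.11 and 7.65 times the Hp level (mean 7.88 ± 0.329). On the receptor side, Cd163, which takes up haptoglobin bound to hemoglobin, had 5 and 6 reads (0.04 and 0.05 TPM). Lrp1, which takes up hemopexin bound to heme, stood at 19.6 and 22.8 TPM. The genes of the heme-degrading enzymes were well expressed, Hmox1 at 73.7 and 79.1 TPM and Hmox2 at 36.7 and 35.3. Those of the biliverdin reductases, which act after them, were too: Blvrb at 734 TPM in both libraries and Blvra at 56.2 and 57.0. Of the 8 genes of this list, Alb included, 6 reached 1 TPM and A1bg had no reads. All 6 with at least 50 reads were within 1.2-fold between the pools. Low Cd163 was not matched by low levels of other macrophage genes, since 7 of the 8 macrophage genes reached 1 TPM, C1qb for example at 46.3 and 47.4 TPM.

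Ambp and Orm1 belong to the lipocalin family of carriers with a barrel-shaped pocket. Ambp encodes a precursor that is cut into alpha-1-microglobulin, a heme-binding lipocalin, and bikunin, the protease inhibitor that joins the inter-alpha-inhibitor heavy chains. Orm1 encodes alpha-1-acid glycoprotein. Both lie on chromosome 4, 190 kb apart (Ambp 63143275 to 63154799, minus strand; Orm1 63344560 to 63348163, plus strand). Ambp had 19701 and 17326 reads and Orm1 none, which allows up to 0.141 and 0.152 TPM by the count of 3 reads that a 0 permits. Ambp was therefore at least 3798.5-fold higher than Orm1 in replicate 1 and at least 3341.6-fold higher in replicate 2. The paralogs Orm2 (0 and 1 read) and Orm3 (no reads) were as low. Of the 676 stretches of 100 nt in the Orm1 transcript, 47 also occur in Orm2; none in the other 9 genes' main transcripts recur in another gene. Of 10 other lipocalin genes, 3 reached 1 TPM in both libraries: Apom, the lipid carrier of HDL, at 443 and 418 TPM, C8g at 15.2 and 16.4, and Lcn2 at 13.3 and 15.4. Orm3, Mup3, Mup20 and Obp2a had no reads.

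The 5 genes of the inter-alpha-inhibitor heavy chain family, of which Itih1, Itih2 and Itih3 encode the chains known to join bikunin, had a lower summed level than Ambp. Itih2 was at 200 and 204 TPM, Itih3 at 64.7 and 64.3, Itih1 at 17.5 and 18.4, Itih4 at 8.01 and 8.29 and Itih5 at 4.43 and 3.99 TPM. The sum of all 5 was 295 and 299 TPM, and the Ambp level was 1.82 and 1.70 times that sum (mean 1.76 ± 0.0804). Tnfaip6, which transfers heavy chains to hyaluronan, was at 0.39 and 0.60 TPM from 20 and 28 reads.

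Apoh, on the plus strand of chromosome 11 (108343354 to 108414396), encodes beta-2-glycoprotein I, which binds anionic phospholipid. It had 1096 and 998 reads. Its annotated range overlaps the end of Prkca on the opposite strand by 575 nt and the intronic gene Gm11656, which had no reads. The overlap with Prkca (6.42 and 5.41 TPM) lies at the far 5′ end, in the short model Apoh-202, to which 0 and 1.27 reads were assigned.

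Saa4 (chromosome 7, 46727998 to 46732603, minus strand), the constitutively made member of the serum amyloid A family, was low, at 121 and 79 reads. It held 85.8% of the reads of the 4 Saa genes in replicate 1 (exact 95% Clopper-Pearson interval 78.9% to 91.1%) and 92.9% in replicate 2 (85.3% to 97.4%). The inducible genes beside it had fewer still: Saa1 had 5 and 3 reads, Saa2 1 and 0, and Saa3 14 and 3. Per length, Saa4 was 58.9% of Saa RNA in replicate 1 and 76.3% in replicate 2, where Saa3 had fewer reads. The intervals of the read shares overlap, and the per-length shares, which rest on few Saa3 reads, have no interval. The pentraxins Crp (7.88 and 7.70 TPM) and Apcs (7.80 and 7.05 TPM), which are plasma pattern-binding proteins, stood above Saa4.

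**Figure D2:**
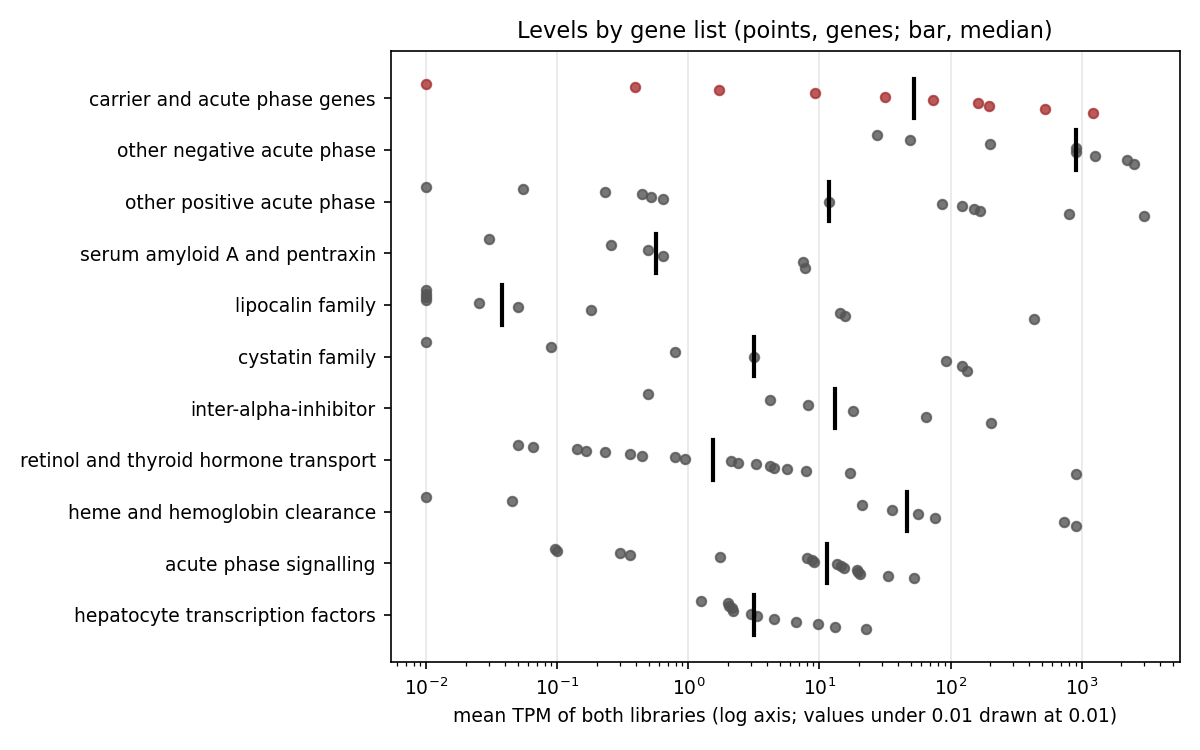
Mean TPM over both libraries (log axis) of the 10 carrier and acute phase genes (red) and of the genes in the other lists (grey), 1 point per gene, with a bar at the median of each list. Every list spans a wide range; the medians are 52.5 TPM for the 10 genes, 903 for other negative acute phase genes and 11.7 for other positive ones.

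Genes known to be lowered or raised in inflammation were read as lists of levels, since no inflamed samples were compared. All 8 other negative acute phase genes reached 1 TPM, with a median of 903 TPM. Trf, the iron carrier, was at 2570 and 2490 TPM, Apoa2 at 2299 and 2183, and Apoa1 at 1253 and 1262. The lowest of the 8 were F12 at 49.8 and 48.7 TPM and Gc at 23.5 and 31.4 TPM. Of 13 other positive acute phase genes, 7 reached 1 TPM, and the median over all 13 was 11.7 TPM. Those 7 were the metallothioneins Mt1 (3100 and 2881 TPM) and Mt2 (812 and 800 TPM), the fibrinogen chains Fga, Fgb and Fgg (121 to 169 TPM), C3 and Lbp. The others, among them Hamp, Serpina3n, Cp and Cd14, lay at 0.67 TPM or under in both libraries. Among the 10 genes, Ttr, Rbp4 and Ahsg of the negative class lay between 160 and 1228 TPM, and Hpx, Hp and Orm1 of the positive class lay between 0 and 74.4 TPM. Ambp, Apoh, Saa4 and Fetub were placed in neither class and lay between 0.26 and 536 TPM, so this split covers only the genes named. Il6, the main inducer, had 2 and 4 reads, Il1b 12 and 14, and Tnf 14 and 14. The receptors and mediators downstream were present, with Jak1 at 51.9 and 53.1 TPM, Stat3 at 32.2 and 34.8, Tnfrsf1a at 20.1 and 20.4 and Cebpb at 19.0 and 20.3; 12 of the 16 signalling genes reached 1 TPM. All 12 hepatocyte transcription factor genes did so too, led by Foxa3 (23.3 and 22.1 TPM), Hnf4a (13.4 and 13.1) and Cebpa (9.78 and 9.67).

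Transcript shares were read from the transcript tables, which divide the reads of a gene among its annotated models; 5′ ends were not measured. The 10 genes had 18 models in the transcript tables, and 6 genes had 1 model each. Rbp4 had 2, with 5′ ends 420 nt apart. Rbp4-202, which begins at 38124828 beside the downstream, CpG-rich start, held 98.7% of Rbp4 TPM in replicate 1 and 98.9% in replicate 2 (31699 and 29251 reads). Rbp4-201, which begins at 38125248, held 1.35% and 1.11% (595 and 451 reads, with a deposited posterior SD of 37.5 and 29.0 reads). In the annotation used for coordinates, Rbp4-201 has 735 coding nt in 6 exons and Rbp4-202 has 603 in 5, so their coding sequences differ. Where they differ was not compared. Ambp-201 held 99.97% and 99.93% of Ambp, and Apoh-201 held 100% and 99.5% of Apoh. The 11 and 19 reads of Fetub were divided among Fetub-202, Fetub-203 and Fetub-204, with posterior SDs of 2.0 to 4.2 reads, too few to order them. All 18 models are protein-coding, and 6 of them have the same version in both annotations.

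**Figure D3:**
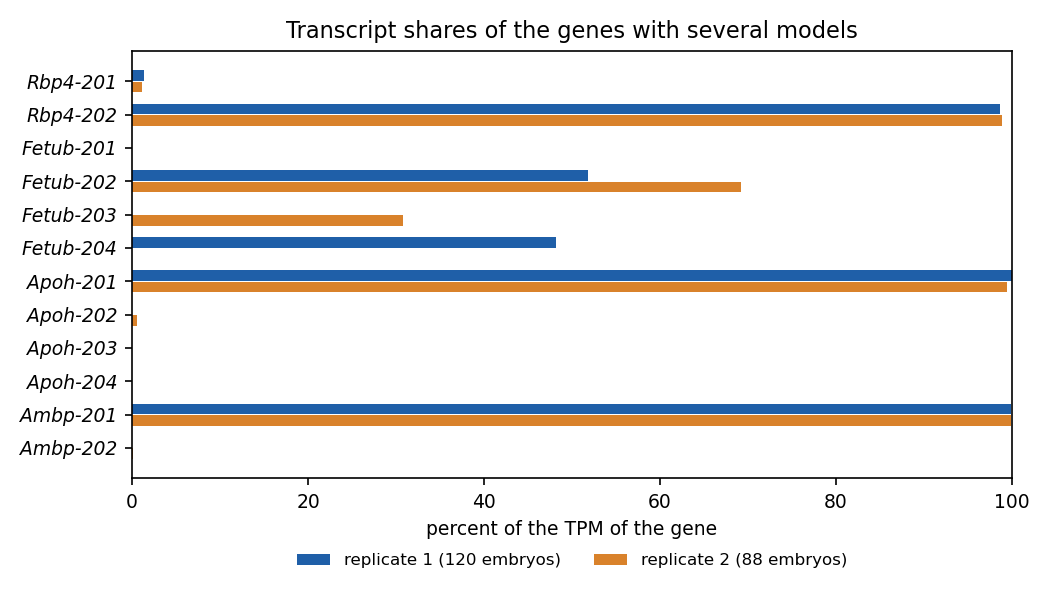
Percent of each gene's TPM held by each of its transcript models, in replicate 1 (blue bars) and replicate 2 (orange bars), for the 4 genes with several models. Rbp4-202, Apoh-201 and Ambp-201 hold nearly all of their genes in both libraries, whereas the Fetub bars, from 11 and 19 reads, differ between the libraries.

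The 6 most abundant genes stood above their genomic neighbours. For each gene, the 2 nearest protein-coding genes on either side that do not overlap it were read from the annotation. Prkca, which overlaps Apoh, was thus left out. For the 6 most abundant genes, all 24 neighbours were lower than the gene itself in both libraries. These 6 were picked by their own level, and the median over mouse genes with a read was 1.86 TPM. Lower neighbours were therefore likely from the start, and other genes at such levels were not compared. The highest of those neighbours was Dnajb11, a chaperone gene 11.6 kb from Ahsg, at 85.2 and 82.6 TPM. Rbp4 lay between Ffar4 (0.47 and 0.16 TPM, 2.37 kb away) and Pde6c (2.80 and 2.57 TPM, 7.50 kb away). Ambp lay between Zfp618 (4.99 and 3.81 TPM) and Kif12 (6.14 and 6.04 TPM), and Ttr between the desmoglein gene Dsg2 (3.97 and 4.08 TPM) and B4galt6 (2.81 and 3.31 TPM). Hp was at a lower level than those 6 genes. Of its 4 neighbours, 3 were higher than it: Dhodh (27.7 and 26.3 TPM), Dhx38 (17.7 and 16.8) and Txnl4b (12.1 and 11.1). Saa4 stood above the 3 Saa genes around it but below Saal1 (18.1 and 19.5 TPM).

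**Figure D4:**
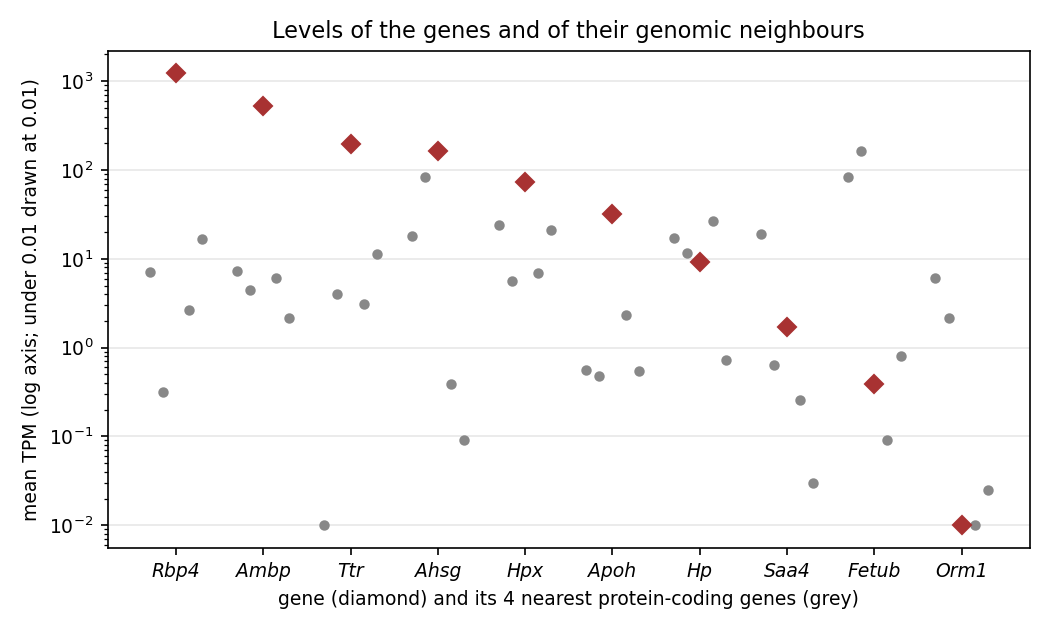
Mean TPM over both libraries (log axis) of each gene (red diamond) and of its 4 nearest non-overlapping protein-coding genes (grey points). Those at lower coordinates lie to the left. The diamonds of the 6 most abundant genes lie above all 24 of their neighbours; those of Hp, Saa4, Fetub and Orm1 do not, and Orm1, with no reads, is drawn at 0.01.

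The pools differed little for most of these genes. Over the 13016 mouse genes with a mean of at least 50 reads, 13.4% lay at least 1.2-fold apart in TPM, and of the 8 carrier genes with that depth 1 did, Saa4. In the direction of Saa4, higher in replicate 1, the share over all genes was 6.02%. An exact counting interval of the ratio left out 1 for 30.9% of the 13016 genes and for 2 of the 8, Ambp and Saa4. Both counts are near the background. The Saa4 ratio was 1.42 (95% interval 1.06 to 1.90, counting error only), and the Ambp ratio was 1.05 (1.03 to 1.07). For Rbp4, Ttr, Ahsg, Hpx, Apoh and Hp the ratio of replicate 1 to replicate 2 lay between 0.973 and 1.03, with intervals that include 1. Fetub, under the limit of 50 reads, was 2.00-fold higher in replicate 2 with an interval of 0.904 to 4.65, so no difference was detectable at this depth. Of the 9 genes with reads, 6 were higher in replicate 1; after centring on the ERCC spike-ins, which moved the median log2 ratio of all genes from 0.0063 to 0.12, 8 were, Ahsg and Hp changing sign. Over the genes with at least 50 reads, 52.1% were higher in replicate 1. In such bulk samples, fewer cells of a type and less RNA per cell cannot be told apart.

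**Figure D5:**
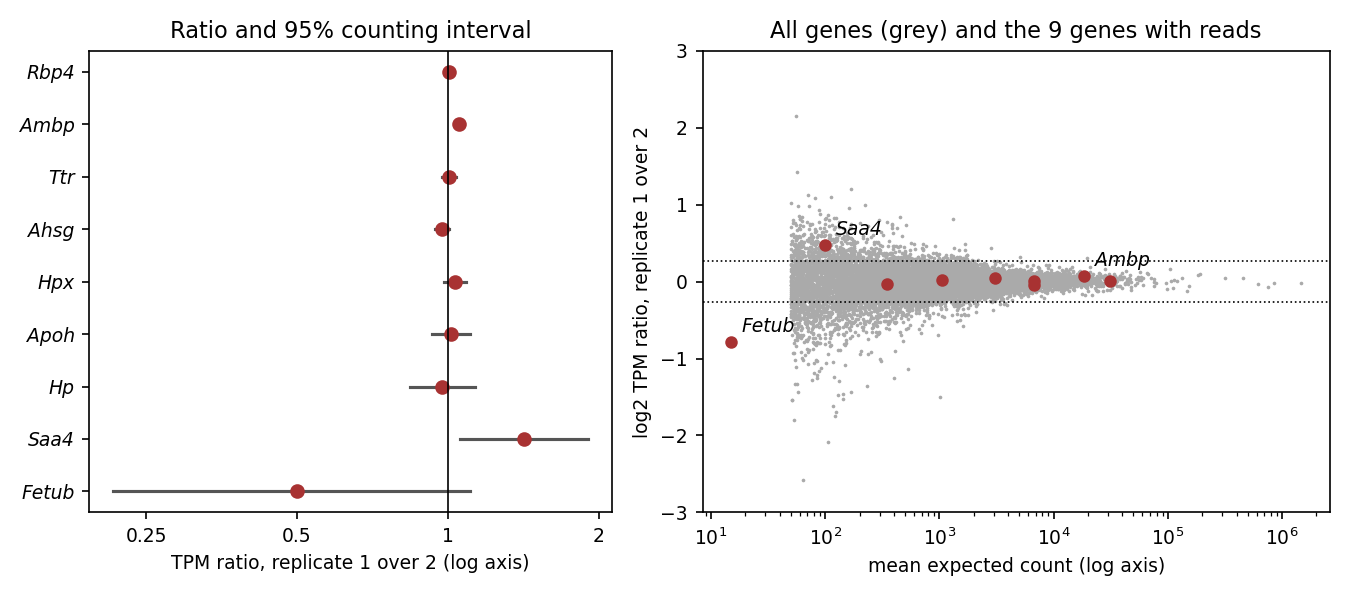
Left, TPM ratio of replicate 1 to replicate 2 (points, log axis) with the exact 95% interval from counts (lines) for the 9 genes with reads. Right, log2 TPM ratio, after adding 0.1, against mean expected count (log axis). Grey points are all genes with a mean of at least 50 reads and red points the same 9 genes, with dotted lines at 1.2-fold. Saa4 lies outside the lines at a log2 ratio of 0.473, and Fetub lies left of the grey points.

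Other cell types in the pools were read from marker lists. All 9 granulocyte genes were lower in replicate 1 (8 after centring on the ERCC spike-ins, Mpo changing side), at a sum of 637 TPM against 741 TPM in replicate 2. S100a8 (237 and 275 TPM), Mpo (183 and 189) and S100a9 (113 and 150) led that list. The 8 macrophage genes summed to 142 and 139 TPM, 5 of the 7 with at least 50 reads being higher in replicate 1 (all 7 after that centring). Over all mouse genes of that depth, 52.1% were higher in replicate 1 before centring. Centring raised the median log2 ratio of those genes from 0.0063 to 0.12, so the counts after it partly follow a shift of every gene. Of 7 stromal and adipocyte genes, Lep had no reads and Adipoq had 1 and 0, while Col3a1 was at 171 and 170 TPM, Col1a1 at 118 and 133 and Lum at 52.8 and 47.7. Of 7 pancreas genes, Ptf1a, Ins1, Ins2 and Neurog3 had no reads and none reached 1 TPM, Cpa1 being highest at 0.47 and 0.78 TPM. The part of these cell types in the Saa4 and Ambp differences was not tested.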

How the data were processed

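Total RNA of embryonic day 12.5 liver was sequenced in 2 libraries of 1 group, and the authors deposited a gene table and a transcript table for each. Per the file headers, these were quantified on mm10 with GENCODE M4. Which aligner and quantifier were used is not given in the sources used here. Deposited expected counts are estimated reads per gene, not normalized, and need not be whole. The deposited TPM values are scaled by effective length to a fixed total over all entries, with spike-ins among them. FPKM values, also deposited, are scaled by length and library depth. Transcript percents deposited by the authors were recomputed here from transcript TPM. Every one of the 10 genes had a deposited posterior SD of the gene count of 0.

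The 43346 mouse gene identifiers were matched to symbols by unversioned identifier, for 42462 of them. Coordinates, neighbours and overlaps came from GENCODE M21 on the same assembly, 1-based. The members and gene lists were chosen with earlier results of these data known. A gene of 1 list is not reported here and was left out of its counts. The naming rule covered all members, the 3 most abundant genes and up to 3 unread genes of each list. It also covered set partners and paralogs, and the 2 nearest non-overlapping protein-coding genes on either side. Other genes were named after their values were seen, and some that the rule covers are given only by counts. Fold differences between the pools and the 1.2-fold rule used TPM ratios with nothing added. Log2 ratios were taken after adding 0.1 to TPM, which understates the change of low genes. Intervals were exact 95% Clopper-Pearson intervals of rounded counts. No molecular identifiers are recorded, so PCR copies could not be told apart, and intervals and floors cover counting error only. The ratio and interval computation was tested on simulated data. No p-value was computed. The tools were Python 3.11.15, pandas 2.3.3, scipy 1.17.1 and, for the scaling alternatives, edgeR 4.0.16 and DESeq2 1.42.0 in R 4.3.3.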

Additional observations from a re-analysis of the deposited data

How the results depend on the processing

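The 2 libraries are 1 group, so no result has a test and the spread over n = 2 is itself poorly known. Leaving out either library gave a sum of the 10 genes of 2207 to 2240 TPM and left 8 genes at 1 TPM or more. The sum was 2350 TPM when the total was taken over mouse genes without spike-ins and tRNA, and 3234 TPM without globins as well; these scalings raise all genes by the same factor in a library. The median log2 ratio of the 9 genes with reads was 0.0080, and 0.12 after centring on the ERCC spike-ins, which moved all genes alike; TMM, DESeq2 size factors, library-scaled counts and a pseudocount of 1 gave 0.0038 to 0.0080. Genes at least 1.2-fold apart numbered 1739 of 13016, 3837 of 16173 with a mean of at least 10 reads, and 10196 of 23518 with no filter. The share of Rbp4-202 was 98.3% of reads, beside 98.8% of TPM. Values of single genes and gene ratios were also taken under the alternatives. Of these, 121 stayed within the spread between the libraries or, for ratios between pools, the counting interval, and 22 did not. Leaving out 1 of 2 libraries stays within that spread by construction. Coding transcripts alone gave the same shares, since all models are coding, and counts per effective length nearly repeat TPM. The 121 therefore includes many values that could not fall outside and is no measure of robustness. No ratio of a gene whose interval left out 1 changed direction. No paired analysis was possible because there is 1 group. Depth limits Fetub, Saa4, the other Saa genes and Orm1.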

Other observations

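Of 12 genes for plasma proteins of the adult hepatocyte, 6 reached 1 TPM in both libraries and 3 had no reads. The 5 Serpina1 genes, which encode alpha-1-antitrypsins, were all above 25 TPM, from Serpina1b at 311 and 312 TPM and Serpina1a at 194 and 192 TPM down to Serpina1c, with a mean of 30.6 TPM, though their sequences are so alike that the division of reads among them is uncertain. The major urinary protein genes Mup3 and Mup20 and the serpin gene Serpina3k had no reads. Mug1 and Azgp1 had 5 reads or fewer in each library. Gc, the vitamin D carrier of the albumin family, stood at 23.5 and 31.4 TPM, 1.34-fold higher in replicate 2, where Alb was 1.02-fold higher.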
